A study of Mus musculus with 12 samples.

Results

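The effect of an siRNA against IMP2 on resting mouse fibroblasts was measured by comparing 3 RNA-seq libraries of cells transfected with that siRNA (siIMP2) with 3 libraries of cells transfected with a control siRNA (siControl), none of which received a stimulus. These 6 samples were chosen by their treatment label from the 12 of the series. All 12 libraries came from wild type C57BL/6 mouse embryonic fibroblasts of E12.5 to E13.5 embryos, a primary culture that can hold several mesenchymal cell types of the embryo. The other 6 libraries, 3 with each siRNA, came from cells that were given interleukin-17 (IL-17, 200 ng/mL) and harvested 8 hours later. They served as a second measurement of the siRNA effect in libraries of their own, and they also entered the main fit over all 12 libraries. In all 4 groups the medium was changed 24 hours after transfection. The labels do not say how many siRNA sequences were used or whether replicates were cultured separately. The spread behind each p-value is therefore that of the libraries fitted and may be technical. Replicate numbers were given in accession order and pair no libraries across groups.

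IMP2, encoded by Igf2bp2, is a cytoplasmic RNA-binding protein of the insulin-like growth factor 2 mRNA-binding family, with the paralogs IMP1 (Igf2bp1) and IMP3 (Igf2bp3). The family binds mRNAs, many of them marked with N6-methyladenosine (m6A), and is known for slowing their decay and for guiding their translation and localisation. Its members are high in embryonic tissue and in cultured embryonic fibroblasts, and Igf2bp2 is the member best known for roles in mesenchymal cells, metabolism and muscle precursors.

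Libraries held between 33841054 and 39746828 reads counted in exons in the 6 unstimulated samples. Library titles start with NA (replicates 1 and 2 of each group) or with RB160 (replicate 3 of each group), and the labels do not say what these 2 title sets stand for. The sets stood apart: the first principal component of the 6 libraries held 66.8% of the variance and separated NA from RB160, and the second held 19.6% and separated the siRNAs within each set. Within each set the first component separated the siRNAs too, with -43.6 and -45.2 in siIMP2 against -17.3 and -17.3 in siControl in NA. In RB160 it was 45.1 against 78.3. Mitochondrially encoded genes took 5.41% to 6.69% of counts in the NA libraries and 3.31% to 3.85% in the RB160 libraries. The set was therefore a term of the model, and for selected genes the value within NA and within RB160 is given too, the latter resting on 1 library per group. Values per library are CPM, that is counts scaled to the library size after correction for library composition. They are given in the order replicate 1, replicate 2 and replicate 3. Where a mean CPM carries a ±, it is the standard deviation over the libraries of the group, both title sets together. Fold changes are log2 values with their standard error, n = 3 per group, siIMP2 minus siControl. The fit ran over all 12 libraries in 4 groups, so standard errors and p-values draw on the spread of the IL-17 libraries too. Each standard error was derived from the fold change and the F statistic of the test. A gene rose or fell where edgeR gave an adjusted p below 0.05. That p comes from the quasi-likelihood test and is adjusted by the Benjamini-Hochberg method across the 13702 genes tested.

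The siRNA target was checked first. Igf2bp2 (ENSMUSG00000033581, chromosome 16, 22059009 to 22163299, minus strand, mm10) stood at 167, 146 and 134 CPM in siControl and 22.3, 18.6 and 24.6 CPM in siIMP2. All 3 siIMP2 libraries lay far below all 3 siControl libraries, and the siRNA left 14.7% of the siControl mean. The log2 fold change was -2.77 ± 0.15, with -2.94 in NA and -2.44 in RB160 (edgeR adjusted p = 1.58e-07). Permuting the siRNA labels of the 6 libraries within title sets (exact, two-sided) gave p = 0.167, and the 12 permutations allow no smaller p. The 2 paralogs moved little. Igf2bp3 had 61.96, 59.6 and 43.1 CPM in siControl and 45.4, 40.6 and 37.9 CPM in siIMP2 and fell by 0.39 ± 0.08 (edgeR adjusted p = 0.002, NA -0.50, RB160 -0.18). Igf2bp1 had 47.3, 50.5 and 37.4 CPM in siControl and 48.6, 50.2 and 42.98 CPM in siIMP2, and its log2 fold change of 0.08 ± 0.06 did not pass (edgeR adjusted p = 0.332). In both cases the groups overlapped. The 3 genes were compared with each other on the deposited TPM scale, which corrects for exon length. Mean Igf2bp2 levels were 59.8 TPM in siControl and 8.49 TPM in siIMP2, those of Igf2bp1 13.2 TPM in siControl and 13.3 TPM in siIMP2, and those of Igf2bp3 19.1 TPM in siControl and 13.8 TPM in siIMP2. By these means Igf2bp2 was the highest of the 3 in siControl and the lowest in siIMP2.

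The IMP2 siRNA moved a broad part of the transcriptome by small amounts. Its sequence is not given in the sources used here, and matches to other RNAs were not examined. Loss of IMP2 and effects of the siRNA on other RNAs therefore cannot be told apart. Of the 13702 genes tested, 4505 were called (32.9%), 2212 of which rose (16.1% of all genes) and 2293 fell (16.7%). Of the called genes 67.6% changed by less than 1.5-fold, and 265 rose and 387 fell by at least 2-fold. The median log2 fold change was 0.38 among genes that rose, -0.45 among genes that fell and -0.000356 among all genes. The direction was the same in NA and RB160 for 99.2% of called genes, which a fit over both sets favours. The 3 values of each group did not overlap for 2565 genes (18.7% of all tested) and for 1921 of those called. Against this background, a list of genes in which about 1 member in 3 is called is not set apart. Lists and their members were chosen with earlier results of these data known, so list counts set beside this background are descriptive only. Without the title-set term the same fit called 321 genes, and most calls below rest on that term: without it 3 of the SRF target genes, 1 of the focal adhesion genes and 5 of the ATF4 genes described below rose, and 0 replication genes fell.

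**Figure D1:**
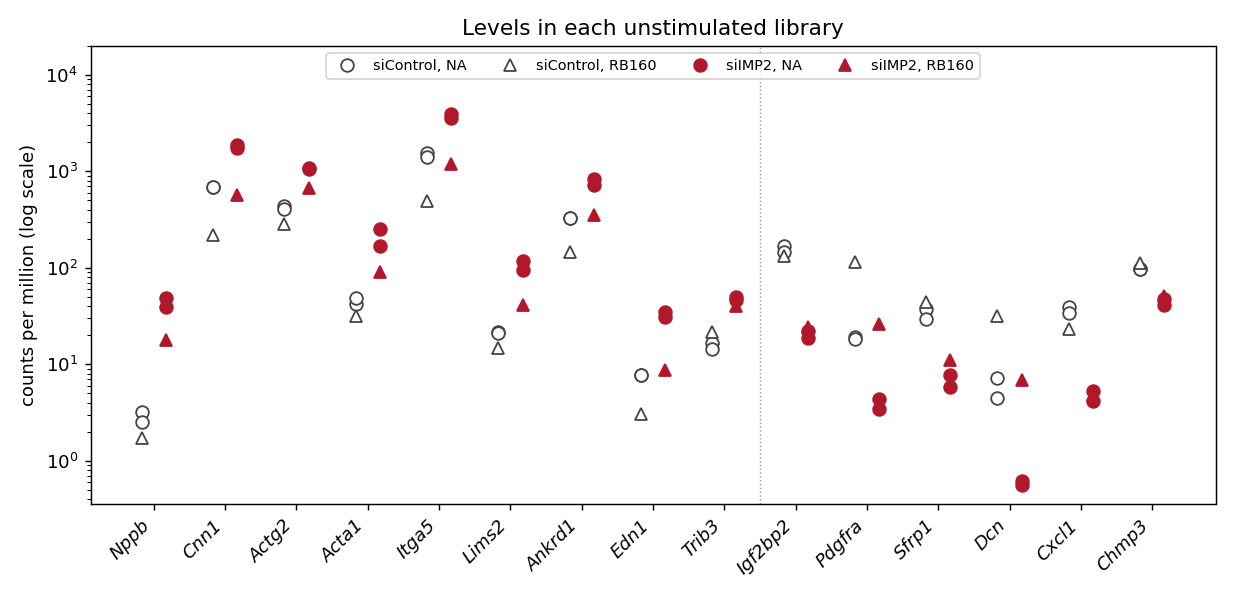
Library-size-scaled CPM (log axis) of 15 genes in each of the 6 unstimulated libraries, open symbols for siControl and filled symbols for siIMP2, circles for the NA set and triangles for the RB160 set. Within each set the filled symbols lie above the open symbols of the same shape for the 9 genes on the left and below them for the 6 genes on the right, while the sets themselves differ in level for genes such as Pdgfra and Dcn.

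The genes that rose with the smallest p-values were led by hormone, actin-binding and adhesion genes. Nppb (ENSMUSG00000029019, chromosome 4, 147985788 to 147987205, plus strand), which encodes the brain natriuretic peptide, a hormone that stretched heart muscle releases, had 3.19, 2.54 and 1.74 CPM in siControl and 39.7, 48.4 and 17.9 CPM in siIMP2. It rose by 3.77 ± 0.14 (13.6-fold, edgeR adjusted p = 2.46e-08, NA 3.92, RB160 3.33), the smallest p-value of any gene tested. Its sister gene Nppa, the atrial natriuretic peptide, rose by 2.69 ± 0.40 (edgeR adjusted p = 0.000257) but only from 0.240 to 1.51 CPM. Of the receptors of these peptides, Npr3, the clearance receptor, fell by 0.97 ± 0.14 (from 83.3 to 44.6 CPM). The guanylyl cyclase gene Npr2 rose by 0.31 ± 0.08, without a call when siIMP2 replicate 2 was left out (edgeR adjusted p up to 0.0538). Edn1, which encodes the vasoconstrictor peptide endothelin-1, had 7.84, 7.68 and 3.04 CPM in siControl and 30.8, 34.97 and 8.79 CPM in siIMP2 and rose by 1.93 ± 0.13 (edgeR adjusted p = 5.49e-07). Fgf13, a non-secreted fibroblast growth factor homolog, rose by 2.36 ± 0.15, with RB160 levels of 0.143 and 0.520 CPM that lay far under the NA levels. Siglecg, a sialic acid-binding lectin gene usually studied in B cells, had 24.8, 26.8 and 6.90 CPM in siControl and 102, 134 and 30.6 CPM in siIMP2, so the groups did not overlap, and it rose by 2.17 ± 0.12 (edgeR adjusted p = 2.16e-07). Trac, the constant region of the T cell receptor alpha chain, rose by 2.02 ± 0.16 (from 2.53 to 10.4 CPM) in these fibroblast libraries. Cobl, an actin nucleator gene, rose by 3.10 ± 0.26 (from 6.98 ± 3.21 to 59.003 ± 10.97 CPM). Coro6, a coronin gene, rose by 1.86 ± 0.12, Fgd3, a Cdc42 exchange factor gene, by 1.46 ± 0.09, and Cspg4, the NG2 proteoglycan of pericytes and progenitors, by 1.22 ± 0.08.

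Contractile and cytoskeletal genes rose nearly as a whole list. Serum response factor (SRF) and its actin-regulated co-activators of the MRTF family drive such genes through a promoter element called the CArG box. Of 31 measured SRF and MRTF target genes, 28 rose and 1 fell, against 16.1% and 16.7% of all genes, with a median log2 fold change of 0.60 (NA 0.64, RB160 0.49). With any 1 library left out, 26 to 27 rose. Cnn1, the smooth muscle calponin, had 696, 696 and 219.7 CPM in siControl and 1769, 1873 and 569 CPM in siIMP2. It rose by 1.38 ± 0.07 (edgeR adjusted p = 1.54e-07, NA 1.39, RB160 1.37). Although NA siControl lay above RB160 siIMP2, siIMP2 was higher than siControl within each set. Actg2, the enteric smooth muscle actin, had 438, 408 and 283 CPM in siControl and 1054, 1073 and 672 CPM in siIMP2, with no overlap, and rose by 1.30 ± 0.07 (edgeR adjusted p = 2.16e-07). Acta1, the skeletal muscle actin, had 41.8, 48.8 and 31.9 CPM in siControl and 170.3, 251 and 89.8 CPM in siIMP2 and rose by 1.96 ± 0.22 (edgeR adjusted p = 2.96e-05). Tagln (transgelin) rose by 0.89 ± 0.07, Fhl1 (a LIM-domain protein of muscle) by 1.14 ± 0.06, Pdlim7 by 0.74 ± 0.06 and Filip1l by 0.92 ± 0.08, each with an edgeR adjusted p of 3.64e-06 or less. The sarcomere genes Myom1 (myomesin) and Neb (nebulin), named for the size of their change, rose by 2.67 ± 0.26 and 1.91 ± 0.20, from 6.28 to 42.1 CPM and from 1.88 to 7.52 CPM, and Sorbs2, a Z-disc and stress fibre adaptor, by 2.13 ± 0.25. In the opposite direction, Actg1, cytoplasmic gamma-actin, fell by 0.28 ± 0.08 (from 6263 ± 1514 to 5065 ± 746 CPM, edgeR adjusted p = 0.0126), a call that was lost without siIMP2 replicate 1 or 2 (edgeR adjusted p up to 0.0584). Mylk, myosin light chain kinase, did not pass (-0.04 ± 0.23, edgeR adjusted p = 0.906), with values of 0.38 in NA and -0.65 in RB160. Markers of skeletal muscle cells were near absent in both groups. Their summed level over 9 listed genes was 0.951 to 2.15 CPM in siControl and 0.851 to 2.22 CPM in siIMP2. Of these genes 3 were at 0 in all 6 libraries, and of the 2 that passed the filter on low counts 0 were called.

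Promoter sequence was examined for this list because its members moved together.
A promoter window, 250 bases before to 50 bases after the start site in RefSeq on GRCm38.p6, was found for 10165 of the 13702 genes (74.2%), and 89.0% of those start sites lay within 500 bases of the gene start in the deposited files.
Of these windows 1.31% held a CArG box on either strand, 2.96% of windows of genes that rose and 1.17% of those that fell.
Of 27 SRF and MRTF target genes with a window, 9 (33.3%) held the element.
All 9 are shown, with 10 bases on each side and the element in capitals, to let the boxes of genes that rose be compared with that of the gene that fell, Actg1.
Srf promoter (GRCm38.p6 chr17:46556205-46556234, minus strand): agcggcctcgCCATAAAAGGaaacattgta
Fhl1 promoter (GRCm38.p6 chrX:56779571-56779600, plus strand): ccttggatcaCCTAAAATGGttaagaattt
Fhl2 promoter (GRCm38.p6 chr1:43196838-43196867, minus strand): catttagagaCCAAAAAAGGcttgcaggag
Myl9 promoter (GRCm38.p6 chr2:156775293-156775322, plus strand): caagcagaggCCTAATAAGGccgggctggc
Acta1 promoter (GRCm38.p6 chr8:123894829-123894858, minus strand): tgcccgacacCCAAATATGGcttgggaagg
Vcl promoter (GRCm38.p6 chr14:20929161-20929190, plus strand): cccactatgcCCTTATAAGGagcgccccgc
Cnn2 promoter (GRCm38.p6 chr10:79988534-79988563, plus strand): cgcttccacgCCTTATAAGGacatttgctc
Lima1 promoter (GRCm38.p6 chr15:99820177-99820206, minus strand): ctcactttgtCCTTATAAGGctatcctgtt
Actg1 promoter (GRCm38.p6 chr11:120348566-120348595, minus strand): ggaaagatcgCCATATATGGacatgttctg
The first base of the shown element lay between 47 and 227 bases upstream of the start site, and the Srf window held 2 such elements.
Of these genes, named for the element and not by their values, Srf itself, which encodes the factor, rose by 0.60 ± 0.08 and Fhl2 by 0.68 ± 0.06.
Myl9, a regulatory myosin light chain, rose by 0.95 ± 0.08, Vcl (vinculin) by 0.56 ± 0.09, Cnn2 by 0.31 ± 0.07 and Lima1 by 0.24 ± 0.06.
A match of letters describes the window and shows no binding. Target genes of a factor are in part known by its element, so its share in their list says nothing about the siRNA. The same limit holds for the TEAD, E2F and ATF4 elements below.

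Adhesion machinery moved the same way. Of 24 measured genes for focal adhesion and actin-linking proteins, 21 rose and 0 fell, with a median of 0.50 (NA 0.46, RB160 0.45), and 19 to 20 rose with any 1 library left out. Lims2, which encodes the adaptor PINCH2 that joins integrin-linked kinase to the cytoskeleton, had 21.8, 21.3 and 14.6 CPM in siControl and 94.04, 118 and 40.97 CPM in siIMP2. The groups did not overlap, and it rose by 2.03 ± 0.19 (edgeR adjusted p = 6.95e-06), by 2.29 in NA and 1.48 in RB160. Tns1 (tensin) rose by 1.25 ± 0.10, Fermt2 (kindlin-2, an integrin activator) by 0.86 ± 0.08, Vasp (an actin polymerase partner) by 0.69 ± 0.05, Csrp1 by 0.71 ± 0.07 and Flnc (filamin C) by 0.68 ± 0.07, each with an edgeR adjusted p of 1.12e-05 or less. Tns2 was among the members that did not pass (-0.18 ± 0.10, edgeR adjusted p = 0.171). Of 25 measured genes whose symbols mark integrin subunits or integrin-named proteins, 7 rose and 3 fell, a share near the background. Among them Itga5, the alpha chain of the fibronectin receptor, had 1551, 1405 and 492 CPM in siControl and 3586, 3909 and 1198 CPM in siIMP2. The gene rose by 1.32 ± 0.08 (edgeR adjusted p = 4.92e-07, NA 1.34, RB160 1.28). Its partner Itgb1 rose by 0.40 ± 0.06 (from 2640.4 to 3459.7 CPM). Itga7 and Itga8 rose by 1.14 ± 0.16 and 0.74 ± 0.12, and Itgb2 and Itgb8 fell by 1.78 ± 0.35 and 1.85 ± 0.46 at mean levels of 1.41 CPM or less in siControl.

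YAP and TAZ are co-activators that respond to cell spreading and tension and act through TEAD factors. Of 24 measured target genes, 14 rose and 1 fell, with a median of 0.37 (NA 0.33, RB160 0.40), and 14 rose with any 1 library left out, while 1 or 2 fell (2 without siControl replicate 3). Ankrd1, a nuclear and sarcomeric ankyrin-repeat protein, had 329, 326 and 145 CPM in siControl and 723, 832 and 357 CPM in siIMP2, with no overlap between the groups. It rose by 1.26 ± 0.08 (edgeR adjusted p = 5.08e-07, NA 1.24, RB160 1.30). Ctgf (connective tissue growth factor) had 2648, 2251 and 518 CPM in siControl and 6275, 6689 and 2351 CPM in siIMP2 and rose by 1.66 ± 0.18, by 1.41 in NA and 2.18 in RB160. Cyr61 rose by 0.85 ± 0.07 (from 807 to 1446 CPM), F3 (tissue factor) by 1.29 ± 0.10, Gadd45b by 1.02 ± 0.06 and Fjx1 by 1.00 ± 0.13. Igfbp3 fell by 1.33 ± 0.29, from 1.13 to 0.451 CPM, and Axl, a receptor kinase gene, did not pass (-0.19 ± 0.08, edgeR adjusted p = 0.101). Of 17 genes of the pathway itself, 8 rose and 3 fell. Yap1 rose by 0.47 ± 0.05, the TEAD genes Tead3 and Tead1 by 0.49 ± 0.06 and 0.32 ± 0.06, and the co-factor gene Vgll3 by 0.71 ± 0.09, whereas Tead2 fell by 0.39 ± 0.08 and the scaffold gene Sav1 by 0.22 ± 0.05. The TEAD element GGAATG, searched on both strands, was in 7 of 17 target-gene windows (41.2%), in 10 of 27 windows of the SRF and MRTF list (37.0%) and in 12% of all windows. Its share was 14.1% in genes that rose, 11.1% in genes that fell and 11.7% in genes not called.

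**Figure D2:**
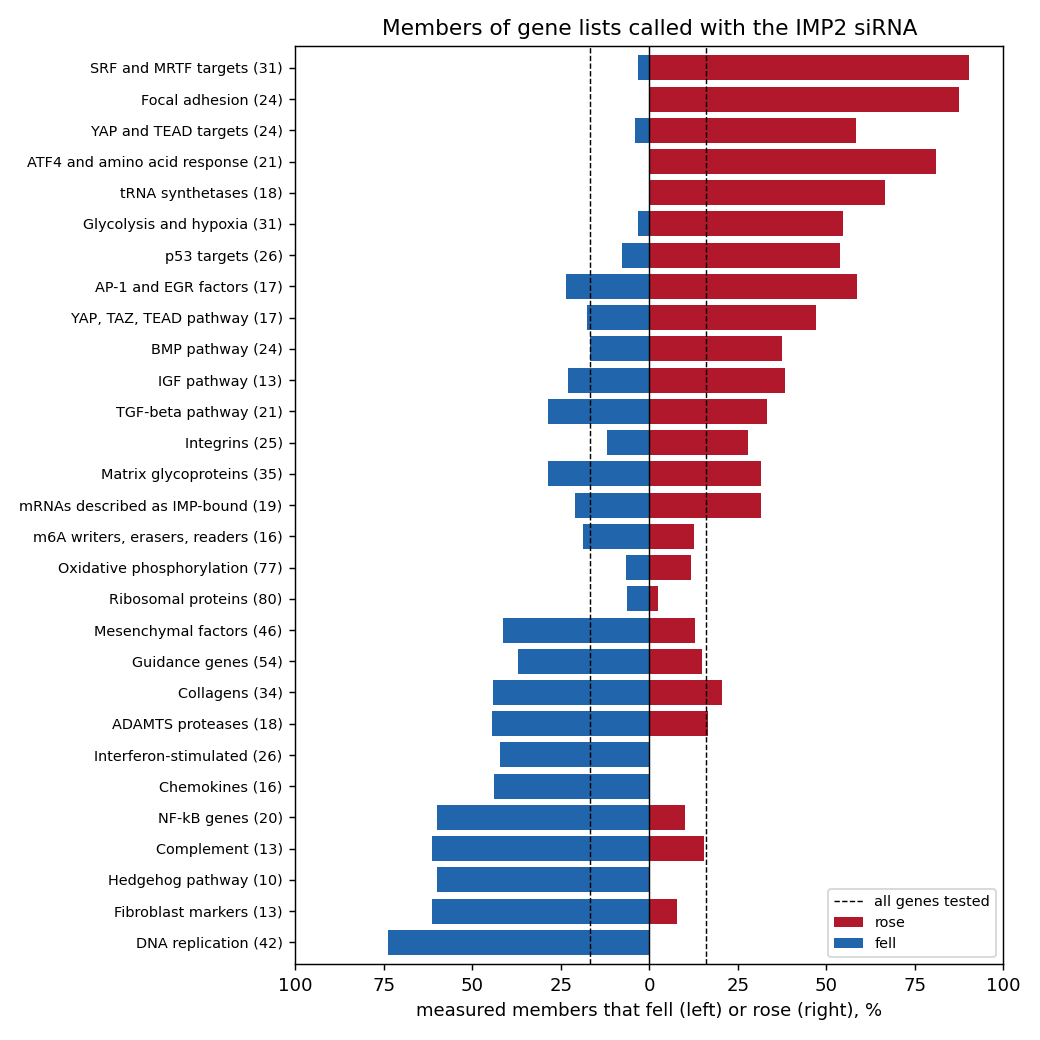
Number of members of 29 gene lists that rose (bars to the right) or fell (bars to the left) with the IMP2 siRNA in unstimulated cells, as a percentage of the measured members of each list, with the number measured after each name. Dashed lines mark 16.1% and 16.7%, the shares of all 13702 genes tested that rose and fell, and cytoskeletal, adhesion and amino acid response lists reach far past the right line while replication, complement and NF-kB lists reach past the left.

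Growth factor pathways of mesenchymal cells split by member. Pdgfra, the receptor for platelet-derived growth factor A and a marker of mesenchymal progenitors, had 19.3, 18.3 and 116 CPM in siControl and 4.39, 3.47 and 25.96 CPM in siIMP2. RB160 levels were several times the NA levels with either siRNA, so the groups overlapped over the 6 libraries, yet it fell by 2.26 in NA and 2.16 in RB160, and by 2.23 ± 0.11 over both (edgeR adjusted p = 1.54e-07). Pdgfrb fell by 0.50 ± 0.06 (from 195 to 140.0 CPM), while the ligand gene Pdgfa rose by 0.71 ± 0.05 (edgeR adjusted p = 2.01e-06). In the transforming growth factor beta (TGF-beta) list, 7 of 21 rose and 6 fell. The receptor genes Tgfbr1, Tgfbr2 and Tgfbr3 fell by 0.41 ± 0.08, 0.40 ± 0.08 and 1.08 ± 0.10 and the target gene Tgfbi by 1.11 ± 0.17. The latency gene Ltbp1 rose by 0.41 ± 0.06. In the bone morphogenetic protein (BMP) list, 9 of 24 rose and 4 fell (1 to 3 fell with 1 library left out, a count that moved by over 1.5 times without siControl replicate 1, siControl replicate 2, siIMP2 replicate 1, siIMP2 replicate 2 or siIMP2 replicate 3). The homeobox gene Msx2, a BMP target, rose by 1.05 ± 0.10, the decoy receptor gene Bambi by 0.81 ± 0.12, the antagonist Nog by 1.04 ± 0.21 and the ligand Bmp4 by 0.71 ± 0.16. Nrg1, a ligand of ErbB receptors, had 64.4, 63.02 and 66.6 CPM in siControl and 33.8, 32.7 and 36.4 CPM in siIMP2 and fell by 0.92 ± 0.06 (edgeR adjusted p = 4.99e-07) with tightly grouped values. Among insulin-like growth factor genes, 5 of 13 rose and 3 fell: Igfbp7, Igfbp2 and Igf1r rose by 0.54 ± 0.05, 0.66 ± 0.09 and 0.37 ± 0.07, and Irs1 and Igfbp5 fell by 0.69 ± 0.15 and 1.29 ± 0.31.

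Genes of the hedgehog pathway and secreted WNT antagonists that passed the test were all lower. Of 7 measured secreted WNT antagonists 0 rose and 4 fell. Sfrp1, a decoy that binds WNT proteins, had 37.1, 29.7 and 44.6 CPM in siControl and 7.66, 5.83 and 10.99 CPM in siIMP2, fell by 2.20 ± 0.11 (edgeR adjusted p = 1.54e-07, NA -2.30, RB160 -2.01) and did not overlap between groups. Dkk2 fell by 1.56 ± 0.32, Notum by 1.02 ± 0.19 and Sfrp2 by 1.71 ± 0.40, the last without a call when either RB160 library was left out (edgeR adjusted p up to 0.234). Of 37 WNT ligand, receptor and target genes 4 rose and 11 fell. The agonists Rspo2 and Rspo3 fell by 1.06 ± 0.11 and 3.14 ± 0.34 (from 72.2 to 34.9 CPM and from 1.95 to 0.217 CPM). The receptor Fzd1 fell by 0.92 ± 0.11 and the target genes Axin2 and Tcf7 by 0.50 ± 0.09 and 0.71 ± 0.10, while Fzd7 rose by 0.42 ± 0.07. Of 10 hedgehog genes 0 rose and 6 fell. Gas1, a co-receptor, had 69.9, 69.3 and 121 CPM in siControl and 15.97, 13.2 and 36.004 CPM in siIMP2 and fell by 2.06 ± 0.12 (edgeR adjusted p = 3.46e-07), and Cdon, another co-receptor, fell by 0.71 ± 0.07. The transducer gene Smo, the receptor and target Ptch1 and the factors Gli3 and Gli1 fell by 0.34 ± 0.07, 0.40 ± 0.08, 0.43 ± 0.06 and 0.75 ± 0.19. Of the Notch pathway, the receptor gene Notch1 fell by 0.77 ± 0.09 and the ligand gene Jag1 rose by 0.67 ± 0.09.

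Matrix genes did not move as a block. Of 34 measured genes with collagen symbols, 7 rose and 15 fell. The basement membrane chains Col4a1 and Col4a2, which lie head to head in the genome, rose by 0.73 ± 0.07 and 0.71 ± 0.07 (from 1536 to 2572 CPM and from 1351 to 2228 CPM), and Col5a1 and Col5a2 by 0.52 ± 0.09 and 0.36 ± 0.06. Col1a1 rose by 0.32 ± 0.07, while the fibrillar Col3a1 fell by 0.72 ± 0.10 (from 834 to 503 CPM), the microfibrillar Col6a1 and Col6a2 by 0.65 ± 0.09 and 0.70 ± 0.12, and Col15a1 by 1.31 ± 0.16. Dcn, decorin, a small proteoglycan that coats collagen fibrils, had 7.24, 4.51 and 31.7 CPM in siControl and 0.556, 0.612 and 6.95 CPM in siIMP2 and fell by 2.65 ± 0.24 (edgeR adjusted p = 5.49e-06). Of its family of small leucine-rich proteoglycans 2 of 10 rose and 5 fell (2 to 5 fell with 1 library left out, a count that moved by over 1.5 times without siControl replicate 3 or siIMP2 replicate 3). Lum fell by 2.33 ± 0.44, without a call in the NA libraries alone, and Aspn by 1.68 ± 0.31 (without siControl replicate 3, edgeR adjusted p = 0.0583), while Prelp and Bgn rose by 1.06 ± 0.13 and 0.27 ± 0.05. Among matrix glycoproteins 11 of 35 rose and 10 fell. Emilin2 fell by 1.06 ± 0.06, Fbln1 by 0.82 ± 0.09, Vcan (versican) by 1.11 ± 0.15 and Fbn2 by 0.82 ± 0.12, and Fbln2, Mfap5, Thbs1 and Fn1 (fibronectin) rose by 0.58 ± 0.08, 0.80 ± 0.12, 0.67 ± 0.12 and 0.31 ± 0.06. Mmp9, a gelatinase, had 8.57, 9.95 and 7.16 CPM in siControl and 1.35, 0.992 and 0.733 CPM in siIMP2, with no overlap, and fell by 3.08 ± 0.18 (edgeR adjusted p = 3.27e-07). Mmp17 rose by 2.06 ± 0.14 (from 2.43 to 10.3 CPM) and the protease gene Adamts12 by 1.71 ± 0.11, and of 18 genes with ADAMTS symbols 3 rose and 8 fell.

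More transcription factors of mesenchyme and more fibroblast markers fell than rose. Of 46 measured factors 6 rose and 19 fell, and 13 to 17 fell with 1 library left out (3 to 6 rose with 1 library left out, a count that moved by over 1.5 times without siControl replicate 2 or siIMP2 replicate 2). Prrx1, a homeobox factor of limb and dermal mesenchyme, fell by 0.89 ± 0.07 (from 390.3 ± 55.5 to 213 ± 42.3 CPM, edgeR adjusted p = 2.44e-06). Zfhx4 fell by 0.71 ± 0.07, Tcf4 by 0.44 ± 0.06, Twist1 and Twist2 by 0.46 ± 0.08 and 0.50 ± 0.08, and Nfib by 0.54 ± 0.08. Sox11, Runx1 and Foxc2 rose by 0.77 ± 0.09, 0.37 ± 0.05 and 0.41 ± 0.07. Of 13 fibroblast markers 1 rose and 8 fell, and Ddr2, a collagen receptor gene, did not pass (0.09 ± 0.07, edgeR adjusted p = 0.356). The summed level of the 14 listed markers was 19278 to 23371 CPM in siControl and 19653 to 24516 CPM in siIMP2, so the sum was not lower. In bulk RNA a smaller share of a cell type and less RNA per cell cannot be told apart. Of adipogenic regulators and early fat cell genes 3 of 14 rose and 3 fell. The factor gene Klf5, the lipid droplet gene Plin2 and the lipase gene Pnpla2 rose by 0.62 ± 0.12, 0.46 ± 0.07 and 0.32 ± 0.08. Pparg, the master regulator of fat cells, fell by 1.64 ± 0.15 (from 7.42 to 2.30 CPM, NA -1.55, RB160 -1.72). Cebpd fell by 1.5 ± 0.26, by 1.88 in NA and 0.55 in RB160, while Cebpb did not pass (-0.19 ± 0.12, edgeR adjusted p = 0.264). The third that fell, the lipid carrier gene Fabp4 (1.45 ± 0.35 lower, from 1.08 to 0.383 CPM), lost its call without siIMP2 replicate 3 (edgeR adjusted p = 0.0642). Among retinoid handling genes, the reductase gene Dhrs3 rose by 0.96 ± 0.12 and the retinol transporter gene Stra6 fell by 2.24 ± 0.29 (from 1.48 to 0.291 CPM). Of guidance genes 8 of 54 rose and 20 fell, with Epha4 and Ntn4 higher by 1.15 and 0.87 and Plxna2, Sema6a and Sema5a lower by 1.07, 1.21 and 0.91. Of cadherins and adhesion molecules 4 of 22 rose and 10 fell (4 to 7 fell with 1 library left out, a count that moved by over 1.5 times without siIMP2 replicate 2 or siIMP2 replicate 3). Mcam, an adhesion molecule of pericytes, had 90.99, 95.8 and 75.6 CPM in siControl and 307, 374 and 208 CPM in siIMP2 and rose by 1.73 ± 0.12 (edgeR adjusted p = 8.56e-07). Ncam1 rose by 0.84 ± 0.07, and Alcam and Vcam1 fell by 1.03 ± 0.12 and 0.87 ± 0.11.

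**Figure D3:**
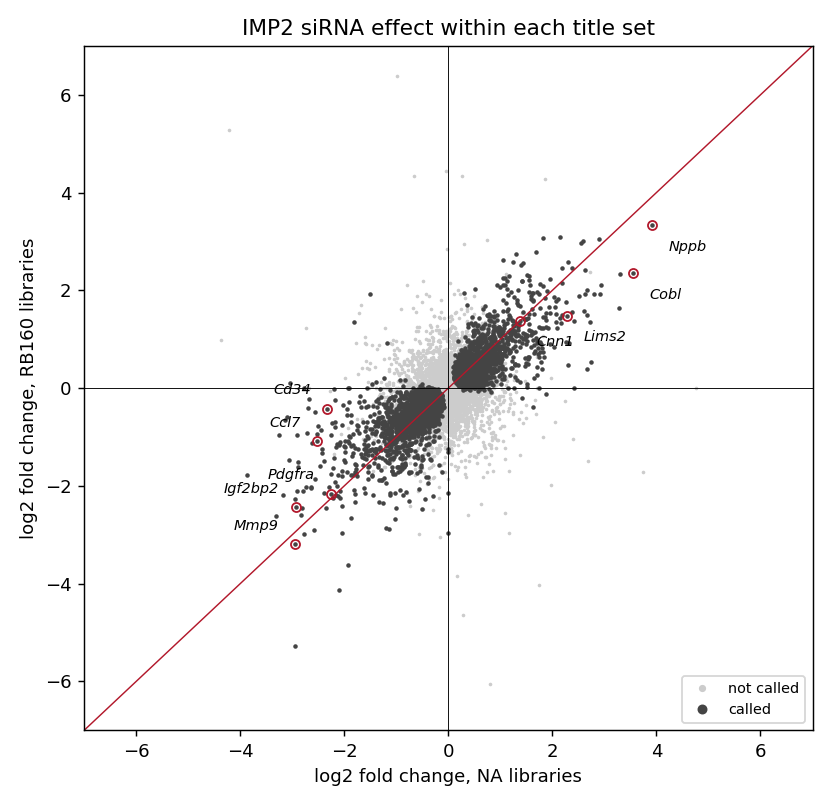
Log2 fold change of siIMP2 against siControl within the NA set (horizontal axis, 2 libraries per group) and within the RB160 set (vertical axis, 1 library per group) for all 13702 genes tested, with called genes dark and selected genes named; the line marks equal change. Of the called genes 4467 lie in the quadrants of equal sign, and genes such as Cd34 and Ccl7 lie nearer the horizontal axis than the line.

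Chemokine, complement and NF-kB genes fell more often than they rose, before any stimulus. Of 16 measured chemokines 0 rose and 7 fell (0 to 1 rose with 1 library left out, a count that moved by over 1.5 times without siControl replicate 3). Cxcl1, a neutrophil chemokine, had 39.3, 34.1 and 23.5 CPM in siControl and 5.23, 4.20 and 4.80 CPM in siIMP2, with no overlap between groups, and fell by 2.77 ± 0.24 (edgeR adjusted p = 4.15e-06, NA -2.95, RB160 -2.28). Ppbp, which encodes the precursor of chemokine CXCL7, fell by 3.46 ± 0.41 (from 5.86 to 0.467 CPM), by 3.86 in NA and 1.78 in RB160. The monocyte chemokines Ccl2 and Ccl7 fell by 2.13 ± 0.32 and 2.07 ± 0.30, with values of -2.62 and -2.52 in NA and -1.12 and -1.08 in RB160. Cxcl12, a homing chemokine of stromal cells, did not pass (0.24 ± 0.17, edgeR adjusted p = 0.326). Among cytokine, receptor and colony-stimulating genes 4 of 21 rose and 10 fell. The receptor Il1r1 fell by 1.47 ± 0.15 (from 37.3 ± 35.2 to 14.6 ± 15.5 CPM) and the decoy ligand Il1rn by 2.33 ± 0.25. Also lower were the alarmin Il33 by 2.49 ± 0.32, and the receptors Il6st, Lifr and Osmr by 0.72 ± 0.08, 0.93 ± 0.12 and 0.85 ± 0.12. Csf3, granulocyte colony-stimulating factor, went the other way: it rose by 3.17 ± 0.36 (edgeR adjusted p = 3.28e-05, NA 2.90, RB160 3.04), from 0.236 to 2.12 CPM, a low level. Of NF-kB subunit, inhibitor and feedback genes 2 of 20 rose and 12 fell (1 to 2 rose with 1 library left out, a count that moved by over 1.5 times without siControl replicate 3 or siIMP2 replicate 3). Bcl3, Nfkbie, Relb and Nfkb2 fell by 1.43 ± 0.16, 0.83 ± 0.11, 0.65 ± 0.08 and 0.58 ± 0.07, and Tnfaip3, the ubiquitin-editing inhibitor A20, rose by 0.86 ± 0.10. Of complement and collectin genes 2 of 13 rose and 8 fell (1 to 2 rose with 1 library left out, a count that moved by over 1.5 times without siIMP2 replicate 2). Those that fell were led by C3 (from 30.6 to 9.22 CPM, lower by 1.77), the serine protease genes C1ra and C1s1 (lower by 0.84 and 0.97) and the scavenger receptor gene Colec12 (lower by 1.08). Of 26 interferon-stimulated genes 0 rose and 11 fell (0 to 2 rose with 1 library left out, a count that moved by over 1.5 times without siControl replicate 3, and 7 to 10 fell with 1 library left out, a count that moved by over 1.5 times without siControl replicate 3 or siIMP2 replicate 3). Irf1 fell by 0.76 ± 0.06, Gbp2 by 1.58 ± 0.18 and Tap1 by 0.71 ± 0.11. Serpina3g, a serpin gene of activated immune cells, had 24.2, 22.2 and 94.6 CPM in siControl and 3.68, 2.80 and 15.5 CPM in siIMP2 and fell by 2.80 ± 0.19. Lcn2, lipocalin-2, fell by 2.96 ± 0.79 (edgeR adjusted p = 0.0122) with RB160 levels of only 0.143 and 0.0709 CPM. Macrophage markers were low, with a summed level over 11 genes of 9.16 to 15.1 CPM in siControl and 8.66 to 10.4 CPM in siIMP2, 4 of them at 0 in all 6 libraries. Of the 4 that passed the filter Mrc1 alone was called (from 0.476 to 0.0589 CPM), and DESeq2 gave it no adjusted p. The part of such cells in the immune genes was not tested.

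The DNA replication genes that were called were all lower, by small amounts.
Of 42 measured DNA replication and S-phase genes 0 rose and 31 fell, with a median of -0.43 (NA -0.44, RB160 -0.40), and 22 to 35 fell with 1 library left out.
Pola1, the catalytic subunit of DNA polymerase alpha, had 20.9, 26.3 and 61.9 CPM in siControl and 13.2, 13.2 and 35.2 CPM in siIMP2 and fell by 0.83 ± 0.11 (edgeR adjusted p = 0.000138, NA -0.83, RB160 -0.82).
The helicase subunits Mcm2 and Mcm5 fell by 0.46 ± 0.07 and 0.68 ± 0.11, Pcna by 0.41 ± 0.06, Tyms (thymidylate synthase) by 0.65 ± 0.10 and Uhrf1 by 0.67 ± 0.10.
Of 35 mitosis genes 0 rose and 14 fell (2 to 28 fell with 1 library left out, a count that moved by over 1.5 times without any of the 6 libraries).
Its median was -0.45 (NA -0.45, RB160 -0.37), and Ccnb2 and Mad2l1 fell by 0.79 ± 0.16 and 0.50 ± 0.12.
Of p53 target genes 14 of 26 rose and 2 fell (1 to 2 fell with 1 library left out, a count that moved by over 1.5 times without siControl replicate 2, siControl replicate 3, siIMP2 replicate 2 or siIMP2 replicate 3).
The apoptosis genes Pmaip1 and Bbc3 rose by 1.30 ± 0.09 and 0.80 ± 0.10, the cell cycle inhibitor Cdkn1a by 0.54 ± 0.05 and Sesn2 by 0.61 ± 0.10, while Sesn1 fell by 0.55 ± 0.09.
An E2F element, TTTNGCGC on either strand, was in 2.35% of all promoter windows, in 3.93% of those of genes that fell and in 1.6% of those of genes that rose.
It was in 9 of 34 windows of replication genes (26.5%).
Of those 9, the windows of 4 minichromosome maintenance genes and Pola1 are shown as examples, not by the size of their change, with the element in capitals.
Mcm3 promoter (GRCm38.p6 chr1:20820263-20820284, minus strand): cttgggaagtTTTGGCGCcaag
Mcm5 promoter (GRCm38.p6 chr8:75109350-75109377, plus strand): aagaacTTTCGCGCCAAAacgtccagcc
Mcm6 promoter (GRCm38.p6 chr1:128359735-128359762, minus strand): attggacgggTTTGGCGCgaagtagctc
Mcm7 promoter (GRCm38.p6 chr5:138171850-138171877, minus strand): ggtgacgacgTTTCGCGCcaatttcggt
Pola1 promoter (GRCm38.p6 chrX:93632276-93632303, minus strand): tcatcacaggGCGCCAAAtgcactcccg
The Mcm6 window held 3 such elements, the Mcm5 window 2 and each other window shown here 1. Overlapping matches in the Mcm5 window run together as 1 stretch of capitals.
Of these, Mcm3 fell by 0.52 ± 0.09, Mcm6 by 0.37 ± 0.06 and Mcm7 by 0.44 ± 0.10.

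More genes of the amino acid response and of sugar metabolism rose than fell.
ATF4 is a stress-activated factor that raises amino acid transport, synthesis and tRNA charging genes.
Of 21 measured genes on its list 17 rose and 0 fell, with a median of 0.51 (NA 0.61, RB160 0.45), and 15 to 18 rose with 1 library left out.
Trib3, a pseudokinase, had 16.6, 14.4 and 21.6 CPM in siControl and 46.5, 50.4 and 40.1 CPM in siIMP2, with no overlap between groups, and rose by 1.37 ± 0.17 (edgeR adjusted p = 8.03e-05, NA 1.64, RB160 0.89).
Pycr1, of proline synthesis, rose by 0.70 ± 0.08, the amino acid transporter Slc7a5 by 0.63 ± 0.08, Mthfd2, of one-carbon metabolism, by 0.69 ± 0.09, and Atf5 by 0.59 ± 0.08.
The cystine transporter Slc7a11 did not pass (-0.09 ± 0.15).
Of 18 cytosolic tRNA synthetases 12 rose and 0 fell, with Nars, Aars and Sars higher by 0.67, 0.42 and 0.40.
An ATF4 element, TGATGNAA on either strand, was in 2.09% of all promoter windows. Its share was 2.6% in genes that rose, 1.93% in genes that fell and 1.99% in genes not called. It was in 6 of 20 windows of the list (30.0%).
These 6 are shown so that the genes that did not pass, Slc7a11 and Asns, can be compared with the others. The Slc7a11 window held 2 such elements and each other window shown here held 1.
Trib3 promoter (GRCm38.p6 chr2:152344029-152344056, minus strand): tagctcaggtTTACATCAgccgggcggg
Chac1 promoter (GRCm38.p6 chr2:119351039-119351066, plus strand): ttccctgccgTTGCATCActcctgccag
Pycr1 promoter (GRCm38.p6 chr11:120643834-120643861, minus strand): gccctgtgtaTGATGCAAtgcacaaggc
Nupr1 promoter (GRCm38.p6 chr7:126625563-126625590, minus strand): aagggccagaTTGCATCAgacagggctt
Asns promoter (GRCm38.p6 chr6:7693215-7693242, minus strand): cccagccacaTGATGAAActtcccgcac
Slc7a11 promoter (GRCm38.p6 chr3:50443643-50443670, minus strand): cctggagaatTTGCATCAtcatgcagcc
Chac1 rose by 1.00 ± 0.18 and Nupr1 by 0.33 ± 0.10, while Asns did not pass (0.28 ± 0.11).
Of 31 glycolysis and hypoxia-response genes 17 rose and 1 fell (11 to 18 rose with 1 library left out, a count that moved by over 1.5 times without siIMP2 replicate 2, and 1 to 2 fell with 1 library left out, a count that moved by over 1.5 times without siControl replicate 3 or siIMP2 replicate 2).
Gapdh had 1347, 1389 and 733 CPM in siControl and 1913, 1899 and 1016 CPM in siIMP2 and rose by 0.48 ± 0.05 (edgeR adjusted p = 2.39e-05).
Aldoa, Eno1 and Pgk1 rose by 0.54 ± 0.07, 0.43 ± 0.06 and 0.37 ± 0.06, and Gpi1 fell by 0.34 ± 0.06.
The hypoxia targets Ankrd37 and Egln3 rose by 2.40 ± 0.32 and 1.51 ± 0.16 from mean levels under 3 CPM, while the kinase gene Pdk1 did not pass (-0.40 ± 0.17, edgeR adjusted p = 0.0797).
Of fatty acid synthesis and desaturation genes 0 of 18 rose and 10 fell (1 rose without siControl replicate 3), with the elongases Elovl5 and Elovl6 lower by 0.73 and 0.60 and Acaca by 0.38, and Fasn did not pass (0.10 ± 0.06).

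Ribosomal protein and respiratory chain lists held few called genes. Of 80 cytosolic ribosomal protein genes 2 rose and 5 fell (0 to 4 rose with 1 library left out, a count that moved by over 1.5 times without any of the 6 libraries, and 3 to 8 fell with 1 library left out, a count that moved by over 1.5 times without siControl replicate 1 or siIMP2 replicate 2), with a median of 0.01 (NA 0.01, RB160 0.01). Rpl21 had the lowest p-value among them and fell by 0.62 ± 0.06 (NA -0.62, RB160 -0.64). Reads of these genes could be shared with their many pseudogenes, so their counts are uncertain. Of nuclear oxidative phosphorylation genes 9 of 77 rose and 5 fell (2 to 5 fell with 1 library left out, a count that moved by over 1.5 times without siControl replicate 1, siControl replicate 3, siIMP2 replicate 2 or siIMP2 replicate 3). Of 13 mitochondrially encoded genes 0 were called by edgeR, with 0 at an unadjusted p below 0.05, 0 by DESeq2 and 0 by limma-voom. Of proteasome subunit genes 3 of 37 rose and 5 fell (1 to 6 fell with 1 library left out, a count that moved by over 1.5 times without siIMP2 replicate 2 or siIMP2 replicate 3), and Psmd8 was higher by 0.64. Of translation factor genes 4 of 49 rose and 8 fell (1 to 6 fell with 1 library left out, a count that moved by over 1.5 times without siControl replicate 1, siControl replicate 2, siIMP2 replicate 2 or siIMP2 replicate 3). Eif4ebp1, which encodes an inhibitor of cap-dependent translation, rose by 0.57 ± 0.08. Of lysosome and autophagy genes 8 of 28 rose and 6 fell (3 to 11 rose with 1 library left out, a count that moved by over 1.5 times without siControl replicate 1, siControl replicate 2, siIMP2 replicate 1 or siIMP2 replicate 2, and 3 to 5 fell with 1 library left out, a count that moved by over 1.5 times without siControl replicate 3 or siIMP2 replicate 3).

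The m6A pathway and mRNAs described in the literature as IMP clients were read from lists as well. Of 16 m6A writer, eraser and reader genes 2 rose and 3 fell (1 to 2 rose with 1 library left out, a count that moved by over 1.5 times without siControl replicate 3 or siIMP2 replicate 3). The share called was near the 32.9% of all genes tested. Mettl3, the methyltransferase, fell by 0.60 ± 0.07 (from 33.5 ± 2.12 to 22.1 ± 2.37 CPM, edgeR adjusted p = 6.08e-05), the demethylase Fto fell by 0.27 ± 0.06 and the demethylase Alkbh5 rose by 0.29 ± 0.06. Ythdf3, a reader of the mark, did not pass (0.07 ± 0.07, edgeR adjusted p = 0.497). Of 19 mRNAs described as bound by IMP proteins 6 rose and 4 fell, with a median of 0.01 (NA -0.07, RB160 0.28). H19, an imprinted long RNA, fell by 2.14 ± 0.30 (from 4.66 to 1.003 CPM), Hmga2, a chromatin protein gene, by 0.73 ± 0.18, with -0.95 in NA and -0.25 in RB160, and Btrc by 0.35 ± 0.06. Actb rose by 0.30 ± 0.07, Slc2a1 by 0.35 ± 0.08, Nras by 0.26 ± 0.05 and the orphan receptor gene Gpr176 by 0.79 ± 0.10, and Hmga1 did not pass (-0.13 ± 0.07). Of 17 RNA-binding regulators of decay 0 rose and 5 fell (0 to 3 rose with 1 library left out, a count that moved by over 1.5 times without siIMP2 replicate 3, and 3 to 4 fell with 1 library left out, a count that moved by over 1.5 times without siIMP2 replicate 2). Those that fell include Zfp36l1 (-0.66 ± 0.08) and Zfp36l2 (-0.33 ± 0.07). The share of these decay regulators that was called was also near that of all genes tested.

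Reads assigned to genes but lying outside their annotated exons gave a separate readout of the same libraries, 4.49% to 5.34% of gene reads in the 6 libraries. What they hold (introns, unspliced RNA or reads of other genes) is not given in the sources used here. In these reads 1346 of 12463 genes tested were called (10.8%) by edgeR with the same adjustment. Of the 3961 genes called from exons and tested here, 3374 had the same sign (85.2%, against 70.2% of all genes), and of the 971 called in both, 961 had the same sign. Genes that rose strongly nearly always rose in both: of 49 genes with a rise of at least 1 on the log2 scale and a mean of at least 50 CPM in the higher group, 46 were called upward in the reads outside exons too. Cnn1 rose by 1.38 ± 0.07 in exons and 1.80 ± 0.11 outside, Fhl1 by 1.14 ± 0.06 and 1.5 ± 0.10, and Mcam by 1.73 ± 0.12 and 1.66 ± 0.11. Of 38 genes with a fall of that size 37 were tested, and 28 were called downward, 8 were not called and 1 was called upward. The genes named from this set were chosen after their values were seen. For Igf2bp2 the reads outside exons stood at 48.6, 47.8 and 37.1 CPM in siControl and 37.3, 43.2 and 24.5 CPM in siIMP2, a change of -0.36 ± 0.17 (edgeR adjusted p = 0.197) beside -2.77 ± 0.15 in exons. Calm3, 1 of 3 calmodulin genes, had 307, 352 and 232 CPM in siControl and 109, 96.6 and 90.4 CPM in siIMP2 in exons and 53.04, 54.2 and 45.6 CPM in siControl and 75.2, 88.98 and 49.3 CPM in siIMP2 outside them. Its groups did not overlap in exons, where it fell by 1.57 ± 0.10 (edgeR adjusted p = 4.92e-07), and it rose by 0.45 ± 0.14 outside (edgeR adjusted p = 0.0381). Chmp3, a subunit of the ESCRT-III membrane-cutting complex, had 96.5, 96.3 and 111 CPM in siControl and 47.9, 41.3 and 50.7 CPM in siIMP2 and fell by 1.12 ± 0.06 in exons (NA -1.12, RB160 -1.13), with 0.25 ± 0.12 outside (edgeR adjusted p = 0.188). Scp2, a sterol carrier gene, had -1.17 ± 0.08 in exons and -0.15 ± 0.23 outside, Scarb1, the high-density lipoprotein receptor gene, -1.02 ± 0.07 and -0.06 ± 0.11, and Tmem123 -1.02 ± 0.10 and 0.37 ± 0.18. Plat (tissue plasminogen activator), Itih2 and Serpinb2, the others without a call, had values of -0.77, -0.63 and -0.91 outside exons (the exon call of Serpinb2 was lost without siControl replicate 1 or siIMP2 replicate 2, edgeR adjusted p up to 0.0848). The difference between the readouts was not tested, and the reads outside exons are far fewer.

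**Figure D4:**
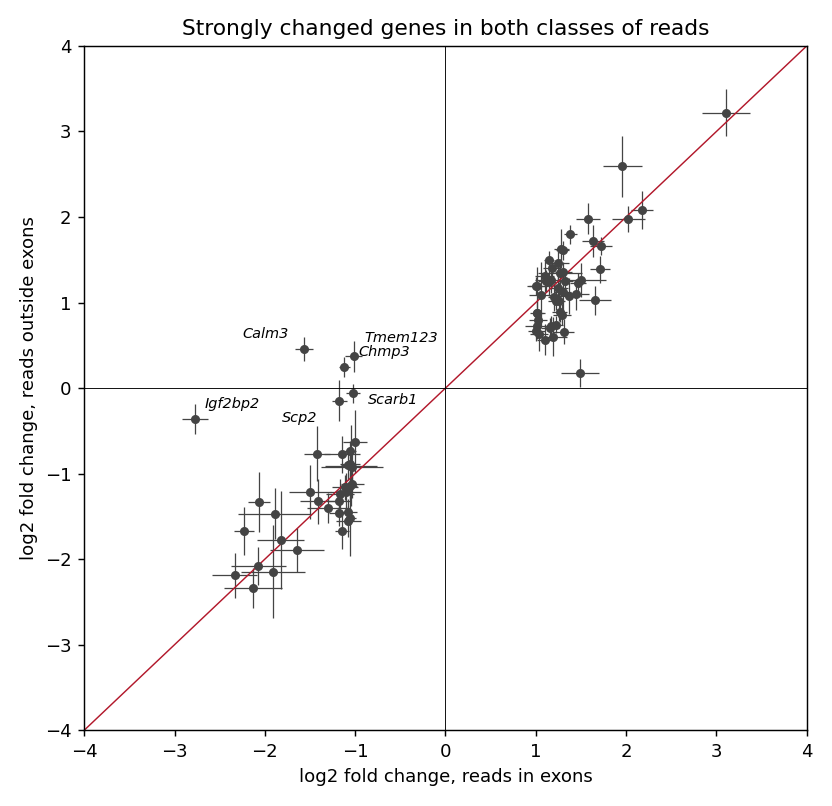
Log2 fold change of siIMP2 against siControl from exon counts (horizontal axis) and from reads assigned to genes outside exons (vertical axis) for the genes with a change of at least 1 on the log2 scale in exons and at least 50 CPM in the higher group, with bars of 1 standard error. Most points follow the line of equal change, and Igf2bp2, Calm3, Chmp3, Scp2, Scarb1 and Tmem123 lie near or above 0 on the vertical axis although they fell in exons.

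Markers of cells other than fibroblasts were read beside these changes. The summed level of 10 endothelial markers was 1.55 to 8.90 CPM in siControl and 2.07 to 4.54 CPM in siIMP2, and of 10 epithelial markers 41.7 to 126 CPM in siControl and 69.3 to 207 CPM in siIMP2. Of the latter, most came from keratin genes: Krt19 rose by 0.73 ± 0.09 (from 92.1 to 152 CPM) and Krt8 by 1.72 ± 0.42 (from 0.183 to 0.601 CPM). Cdh1, E-cadherin, fell by 1.15 ± 0.33 at a low level (from 0.729 to 0.322 CPM), without a call when siControl replicate 3, siIMP2 replicate 2 or siIMP2 replicate 3 was left out (edgeR adjusted p up to 0.144) and by DESeq2. Neural markers summed to 343 to 989 CPM in siControl and 435 to 958 CPM in siIMP2. Stmn2 and Map2 fell by 0.74 ± 0.11 and 0.74 ± 0.18, while Nes, an intermediate filament gene of progenitors, did not pass (0.15 ± 0.08, edgeR adjusted p = 0.179). Cartilage and bone markers summed to 191 to 589.6 CPM in siControl and 142 to 343 CPM in siIMP2, and of 6 that passed the filter Col2a1, the cartilage collagen, alone was called (from 271 to 163 CPM). The 10 erythroid markers were all under the filter on low counts. The part of other cells in the changes of fibroblast genes was not tested.

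The sets differed in the size of some effects. A term for the title set by siRNA, fitted over all 12 libraries with both stimulus states, was called for 712 genes (5.2%), 299 of which were also called for the siRNA effect. The count rested in part on single libraries: it was 249 without siControl replicate 3, 372 without siIMP2 replicate 3 and 414 without siIMP2 replicate 2, and 1200 with no filter on low counts. Of those 299, 202 had the same sign in both sets and a smaller change in RB160, 80 the same sign and a larger change there, and 17 opposite signs. Cd34, a progenitor surface marker, had 27.7, 29.7 and 13.4 CPM in siControl and 6.46, 4.99 and 9.9998 CPM in siIMP2, with no overlap of the groups. The fall was 2.32 in NA and 0.42 in RB160. Myom1, Cobl, Lims2, Il1rn, Ccl7 and Igf2bp2 itself were among the genes with a smaller change in RB160, and Ctgf was among those with a larger one. Among genes without a call for the pooled effect, Pkp1, a desmosomal plaque gene, had 0.13 in NA and 1.53 in RB160, and Csrp2, a muscle LIM protein gene, 0.77 and -0.63. Sets and any difference of cells, passage or handling between them cannot be told apart.

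The libraries of IL-17-treated cells, which share no library with the unstimulated ones, gave a second measurement of the siRNA effect. Each comparison was fitted on its own 6 libraries: 3902 of 13253 genes were called without stimulus (29.4%) and 4385 of 13234 with IL-17 (33.1%). Of the 3902, 3876 were tested in the IL-17 libraries, 3867 had the same sign there (99.8%, against 86.2% of all genes), and 3249 were also called (83.8% of the 3876, and 74.4% of the 4365 genes called with IL-17 and tested without). Fewer genes were called with other settings, and nearly all kept the sign: 2396 of 2399 without siIMP2 replicate 2, 2453 of 2457 without siIMP2 replicate 1 and 4 of 4 without the title-set term. Nppb rose by 3.24 ± 0.11 with IL-17, Cnn1 by 1.5 ± 0.06, Lims2 by 2.20 ± 0.15 and Ankrd1 by 1.31 ± 0.09. Igf2bp2 changed by -2.70 ± 0.13, Pdgfra by -2.32 ± 0.10, Sfrp1 by -2.20 ± 0.08, Chmp3 by -1.11 ± 0.05, Calm3 by -1.55 ± 0.08 and Cxcl1 by -2.29 ± 0.14. The SRF and MRTF list had 26 of 31 higher there, focal adhesion genes 23 of 24, ATF4 genes 16 of 21, and replication genes 34 of 42 lower. In the opposite direction, 1 SRF and MRTF target and 2 ATF4 genes were lower there. Of focal adhesion genes 0 were lower and of replication genes 0 were higher. The term for a difference of the siRNA effect between IL-17 and no stimulus, fitted over all 12 libraries, called 0 genes by edgeR, with 152 at an unadjusted p below 0.05 (1.11% of genes), 0 by DESeq2 (71 unadjusted) and 0 by limma-voom (152 unadjusted). A missed threshold does not show that the effects were equal.

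**Figure D5:**
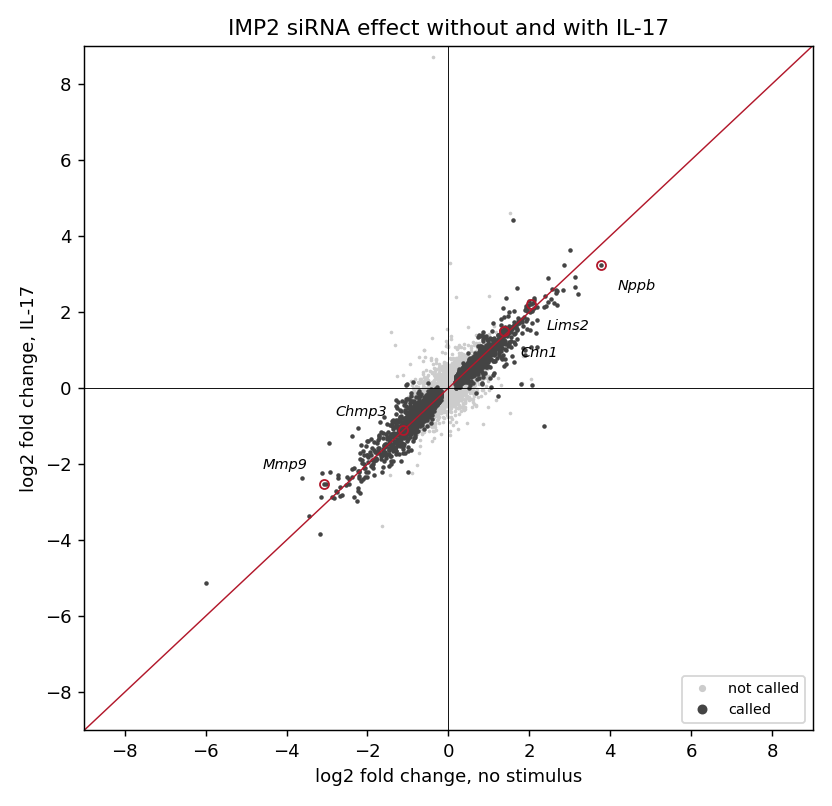
Log2 fold change of siIMP2 against siControl in unstimulated cells (horizontal axis) and in IL-17-treated cells (vertical axis), each fitted on its own 6 libraries, for the 13096 genes tested in both, with genes called without stimulus dark and selected genes named; the line marks equal change. Called genes lie along the line, and 3867 of 3876 have the same sign on both axes.

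The authors' deposited table gives their own comparison of the IMP2 siRNA with Mock. Mock was read as the control siRNA without stimulus, since the labels hold no other unstimulated control. Of 20274 genes in the authors' deposited table, 164 had an adjusted p below 0.05 (0.809%), 72 higher and 92 lower, and all 164 were called here with the same sign. Cnn1 had a log2 fold change of 1.39 and an adjusted p of 0.348 in the authors' deposited table, and Pdgfra -2.18 and 0.436, both genes with levels that differ between the title sets. Mmp9 had -3.07 and 4.7e-09 in the authors' deposited table.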

How the data were processed

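RNA-seq of 12 libraries of mouse embryonic fibroblasts was used, and the 6 unstimulated libraries are described here, with the IL-17-treated ones entering the fits. Each deposited file gives read counts per gene (mm10, per the submitters' processing notes), and the deposited column of expression values held whole-number counts of reads in exons, taken as the count. How reads were aligned and counted, and whether by strand, is not stated in the labels or headers, so overlapping genes and antisense partners cannot be told apart. The deposited TPM values, used to compare the IMP genes, are the authors' own, per the file headers. The authors' deposited comparison tables give log2 fold changes and adjusted p-values. Reads outside exons are the deposited gene read count minus the exon count. Counts were tested with edgeR 4.0.16 (R 4.3.3) by the quasi-likelihood test with TMM factors and filterByExpr (minimum count 10, minimum total 15), over all 12 libraries in 4 groups with the title set as a term; 13702 of 48709 genes were tested. DESeq2 1.42.0 and limma-voom (3.58.1) were alternatives, beside other size factors, filters and left-out libraries. The code was tested on simulated data. The genes named are Igf2bp1 to Igf2bp3, the 15 genes of smallest p and 15 of largest fold change in each direction, up to 6 members per direction of each of 65 gene lists, members of small lists, and genes whose effect differed between sets; genes shown for a promoter element or for reads outside exons come on top. Members and lists were chosen with earlier results of these data known. Promoter sequences are from RefSeq on GRCm38.p6. Some genes that the naming rule selects are not reported here.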

Additional observations from a re-analysis of the deposited data

Results flagged for a closer look

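The IMP2 siRNA effect differed between the title sets, tested over all 12 libraries, for 712 genes, and for these genes of the report the difference (RB160 minus NA, log2, edgeR adjusted p below 0.05) is given as a value. Among genes that rose, the effect was smaller in RB160 for Adamts12 (-0.46), Ankrd37 (-1.48), Bmp4 (-0.65), Cobl (-1.12), Lims2 (-0.74), Mthfd2 (-0.33), Myom1 (-1.25), Prelp (-0.50), Sorbs2 (-1.19) and Trib3 (-0.70), and larger for Ctgf (0.85) and Klf5 (0.48). Among genes that fell, it was smaller in RB160 for Ccl2 (1.45), Ccl7 (1.45), Cd34 (2.02), Cebpd (1.08), Dkk2 (1.29), Hmga2 (0.88), Igf2bp2 (0.55), Igf2bp3 (0.30), Igfbp5 (1.53), Il1rn (1.11), Irs1 (0.67), Ppbp (2.0) and Vcan (0.64), and larger for Fzd1 (-0.43). Among genes without a call for the siRNA effect, the difference was Axl (0.33), Csrp2 (-1.37), Cxcl12 (-0.77), Mylk (-1.01), Nes (0.38) and Pkp1 (1.58). The term uses the IL-17-treated libraries too, so it need not equal the difference of the unstimulated values given in the report. Groups of 3 libraries are too small for a check of single outlying libraries.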

How the results depend on the processing

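The 4505 calls stayed between 3222 and 4067 with 1 unstimulated library left out and between 3902 and 4516 with other size factors, DESeq2, limma-voom, other filters, the NA libraries alone, 6 libraries alone or uniquely mapped reads (the last chosen after seeing the data). They were 321 without the title-set term, 652 with a log2 fold change of at least 1 and 1346 in reads outside exons (chosen after seeing the data, with far fewer reads). The 712 set differences were 1200 with no filter and 249 to 780 with 1 library left out. The 3867 of 3876 called genes with the same sign in IL-17 libraries were 4 of 4 without the title-set term, 2396 of 2399 to 3506 of 3522 with 1 library left out and 4488 of 4505 in 1 fit over all 12 libraries. The difference between IL-17 and no stimulus gave 0 genes under every alternative run. The Igf2bp2 log2 fold change was -2.89 to -2.66 with 1 library left out and kept its call under every alternative run on exon counts, but not in reads outside exons (-0.36, edgeR adjusted p = 0.197). Of 235 called genes in the report, 0 changed sign under any alternative run on exon counts, 9 lost the call with 1 library left out, 186 without the title-set term and 4 under another alternative. In reads outside exons 5 of the 206 tested there had the opposite sign (Calm3, with a call there, and Chmp3, Tmem123, Rpl21 and Gpi1 without). Mylk, without a call, turned to 0.38 in the NA libraries alone and ranged from -0.19 to 0.36 with 1 library left out, and Slc7a11 from -0.25 to 0.13; the cause was not tested. No paired analysis was possible because the labels give no replicate numbers shared between groups, beyond the title set, which is a term of the model. In simulated counts with these library sizes and spreads, 200 genes were changed. Of genes changed 1.5-fold 70.0% were recovered, and of genes changed 2-fold 84%, so changes of either size are missed at this number of libraries. False calls were 6.04% of the genes called at 1.5-fold and 9.68% at 2-fold, above the 5% aimed at. Far fewer genes were changed there than were called here, so these shares need not hold for these data.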
